A study of Mus musculus with 36 samples.

Results

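The difference between 2 genotypes in the transcriptional response of immortalized dermal fibroblasts (iDFs) to serum was measured across all genes. All 8 iDF RNA-seq libraries of the 36 samples in the series entered the comparison, and they were chosen by their labels alone. The quantity described is the serum response of dKO cells minus the serum response of WT cells, in which each response is the log2 fold change from 0 to 30 min of serum. A value above 0 means that the dKO response was the higher one, so that for a gene that fell with serum a value below 0 means a deeper fall in dKO cells.

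The series concerns macroH2A histone variants in mouse melanoma and its stroma, and the serum experiment asks how cells with and without macroH2A respond to an acute stimulus. WT cells carry both macroH2A genes, and dKO cells come from a strain constitutively deficient for *H2afy* and *H2afy2*. The iDFs were derived from skin of animals without tumours, were immortalized and are labelled male. The cells of all groups were grown to confluence and kept for 24 h in medium with 0.5% serum, and the 30 min groups then received 10% serum. Each of the 4 groups (WT at 0 min, WT at 30 min, dKO at 0 min and dKO at 30 min) had 2 libraries, numbered 1 and 2 in the labels and described in the methods as experimental replicates. Whether they are separate cultures or days was not given, so p-values measure the spread between these libraries, which may be technical. Whether each genotype is 1 cell line was not given either, so genotype and cell line cannot be told apart.

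Serum growth factors act on quiescent fibroblasts through receptor tyrosine kinases, G-protein-coupled receptors and cytokine receptors, and the signals converge within minutes on transcription factors that are already present. Serum response factor (SRF), with its ternary complex and MRTF partners, the AP-1 and CREB families and NF-κB switch on the immediate-early genes, which need no new protein synthesis. Many of the induced products, among them dual-specificity phosphatases, mRNA decay factors and IκB proteins, feed back on the pathways that induced them. MacroH2A variants carry a large non-histone macro domain and are found mostly in transcriptionally inactive chromatin.

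The libraries held 22560402 to 30960463 estimated reads assigned to genes, and 15047 genes passed the filter on low counts. Levels are given as CPM, each count scaled to the library's effective total by TMM, and they are levels of bulk RNA, so that fewer responding cells and less RNA per cell cannot be told apart. The 10 fibroblast markers examined summed to 29773 to 32931 CPM in every group, all 10 above 1 CPM. Keratinocyte, endothelial, immune, melanocyte and muscle markers each summed to 7.69 CPM or less, and *Krt5*, *Krt14*, *Ptprc* and *Cd3e* were at or near 0. *H2afy* measured 91.8 and 94.3 CPM in WT and 65.2 and 61.0 CPM in dKO libraries at 0 min, and *H2afy2* measured 51.2 and 49.4 CPM in WT and 31.2 and 31.3 CPM in dKO. Both genes were lower in dKO at 0 min (log2 fold changes of -0.56 and -0.69, edgeR adjusted p = 4.2e-05 and 1.9e-05), and their serum responses differed by 0.06 and 0.09 between genotypes. Which part of each allele is deleted was not given, so the remaining reads do not check the labels.

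A gene was called where the Benjamini-Hochberg adjusted p of edgeR's quasi-likelihood test over all 15047 genes was under 0.05 and the absolute log2 value was above 0.75. Serum changed many genes. Over both genotypes, the mean response called 397 genes up (2.64% of those tested) and 213 down (1.42%), and these are called serum-induced and serum-repressed below. In WT cells 232 genes were called up (1.54%) and 62 down (0.412%), and in dKO cells 322 were called up (2.14%) and 171 down (1.14%). A call in one genotype alone does not show a difference between them. In the test of that difference, 2 genes were called (0.0133%), both with the higher response in dKO (0.0133%), and 0 with the lower response (0%). For 364 genes the unadjusted p of the same test was under 0.05, which is 2.42% of those tested, and DESeq2 called 5 genes higher and 2 lower.

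*Nfkbia* was one of the called genes, and its sequence is almost all its own. It encodes IκBα, which holds NF-κB in the cytoplasm and is resynthesized under NF-κB control as a negative feedback. The gene lies on the minus strand of chromosome 12 at 55489410 to 55492647 (GRCm38). Its level was 15.7 and 16.8 CPM in WT at 0 min, 99.5 and 99.2 CPM in WT at 30 min, 19.0 and 19.3 CPM in dKO at 0 min, and 304 and 308 CPM in dKO at 30 min. Both dKO libraries at 30 min were about the same and stood above every other library by a wide margin, and the groups did not overlap. Serum raised *Nfkbia* 6.12-fold in WT and 16-fold in dKO, log2 responses of 2.61 and 4.0, and the difference was 1.38 (SE 0.07, edgeR adjusted p = 1.1e-04). The difference was 1.34 from the libraries numbered 1 and 1.43 from those numbered 2. At 0 min the dKO level was higher by 0.24 on the log2 scale, and the rise was 287 CPM in dKO against 83.1 CPM in WT. Of the 1580 stretches of 31 bases in its transcripts, 3 (0.190%) occur in another gene.

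The other call was *Gm2446*, whose stretches of 31 bases all occur in other genes as well, so its reads cannot be told apart from theirs. It measured 4.67 and 4.69 CPM in WT at 0 min, 3.33 and 4.81 CPM in WT at 30 min, 0 in both dKO libraries at 0 min, and 5.32 and 4.36 CPM in dKO at 30 min. The fitted difference of 10.16 (edgeR adjusted p = 0.0026) is set against a group at 0 and is no estimate of size. *Gm2436*, which shares 99.9% of the 742 stretches of 31 bases of *Gm2446*, measured 4.87 and 5.00 CPM in the dKO libraries at 0 min and 0 in the other 6. *Ppp2r3c* shares 83.3% of them. The summed level of these 3 genes was 19.2 to 22 CPM in all 8 libraries.

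Across all genes the responses of both genotypes were close. For the 12028 genes with an average log2 CPM of at least 1, the median difference was 0.01, the central 90% ran from -0.27 to 0.22, and 90.4% lay within 0.25 of 0. The difference exceeded 0.75 for 54 of them and was below -0.75 for 57. The precision of a single gene depended on its level, with a median standard error of 0.71 for genes with an average log2 CPM under 0 and 0.07 for those above 6.

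The difference grew with the size of the response. The 397 serum-induced genes had a median log2 response of 1.38 in WT and 1.5 in dKO, and the median difference was 0.12, with 64.0% of the genes above 0. The 213 serum-repressed genes had median responses of -0.92 in WT and -1.10 in dKO, and a median difference of -0.23, with 24.9% above 0. The 14437 genes in neither class had a median difference of 0.00. A line fitted by total least squares through the 610 responsive genes, with the WT response on one axis and the dKO response on the other, had a slope of 1.17, where 1 means equal responses. The slope was 1.10 in the libraries numbered 1 and 1.11 in those numbered 2, and these values describe the genes and carry no test.

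**Figure D1:**
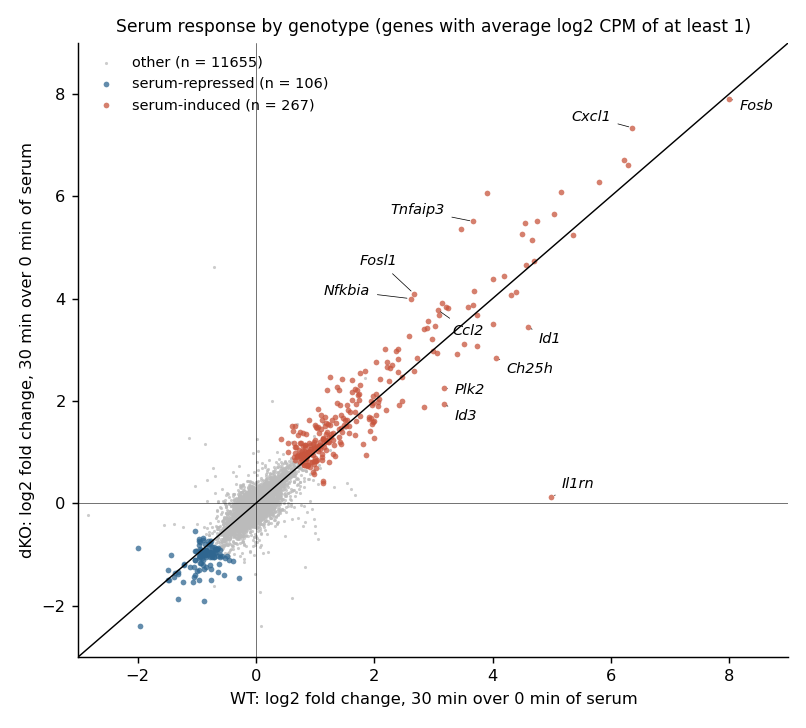
Log2 fold change from 0 to 30 min of serum in WT cells (x axis) against dKO cells (y axis), 1 point per gene with an average log2 CPM no lower than 1, with a diagonal that marks equal responses. Serum-induced genes (red, n = 267) lie mostly above the diagonal (68.5%), serum-repressed genes (blue, n = 106) mostly below it, the rest are grey, and 11 genes lie outside the axes. *Il1rn*, far to the right, had 0 counts in both WT libraries at 0 min and 3 and 4 at 30 min, so its WT response is no measure of size.

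Steps along the mean response showed how the difference was spread. Among genes with an average log2 CPM of at least 1, the median difference was -0.55 where the mean response was below -1.5 (7 genes), -0.16 from -1.5 to -0.75 (114 genes) and 0.01 between -0.25 and 0.25 (9952 genes). It was 0.08 from 0.75 to 1.5 (166 genes), 0.17 from 1.5 to 3 (77 genes) and 0.48 above 3 (50 genes). The mean response and the difference come from the same libraries here, so the genes were also binned by the libraries of one number and the difference read from those of the other. Binned by number 2 and read in number 1, the median was 0.04 for responses from 0.75 to 1.5, 0.16 from 1.5 to 3 and 0.33 above 3. Binned by number 1 and read in number 2, it was 0.14, 0.24 and 0.44. From -1.5 to -0.75 it was -0.09 and -0.21. The order of the bins from -1.5 upward was the same in both readings. Below -1.5 few genes were left, and the median was -0.01 (16 genes) in the first reading and -2.01 (4 genes) in the second, so that bin broke the order in the first. The 46 serum-induced genes with a mean response above 3 had a median difference of 0.47, a dKO fold change 1.38 times that of WT, and 34 of them lay above 0.

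**Figure D2:**
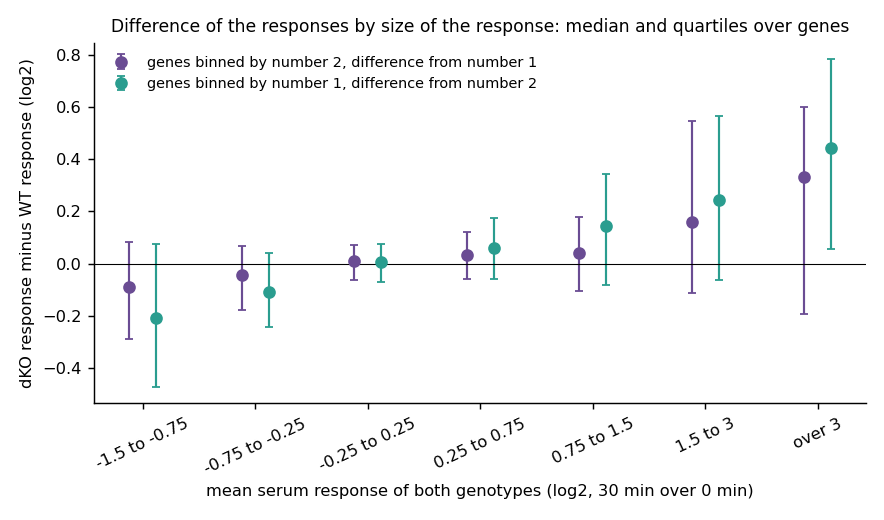
Median difference between the dKO and WT responses (y axis, log2) for genes grouped by their mean serum response (x axis, log2 fold change bins from -1.5 upward), in the 2 readings in which one library number set the bins and the other gave the difference. Points are medians and bars run from the lower to the upper quartile over genes, and the median rises from near 0 in the middle bin to 0.33 and 0.44 above 3.

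On the linear scale the genotypes differed before serum as well. Summed over the serum-induced genes, the level was 15629 and 15481 CPM in WT at 0 min, 49212 and 55068 CPM in WT at 30 min, 21690 and 20048 CPM in dKO at 0 min, and 67018 and 74871 CPM in dKO at 30 min. Both dKO groups stood above the WT group of the same time, before as well as after serum. The summed rise was 36585 CPM in WT and 50075 CPM in dKO, a ratio of 1.37, and the summed level at 0 min already stood in a ratio of 1.34. The summed level thus rose 3.35-fold in WT and 3.4-fold in dKO, which is nearly the same fold. The rise in CPM was larger in dKO for 311 of the 397 genes (78.3%), a higher share than for the log2 difference. The repressed genes together lost 545 CPM in WT and 637 CPM in dKO, a ratio of 1.17.

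The size of the difference was not independent of single libraries. With the library numbered 1 of WT at 30 min left out and the classes called again, the median difference was -0.01 for induced genes and 0.04 for repressed genes, and the slope was 1.01. With the same gene classes kept, leaving out any 1 library gave medians of 0.02 to 0.26 for induced genes and -0.35 to -0.09 for repressed genes. In the same way, classes called in WT cells alone gave medians of 0.06 and -0.06, and classes called in dKO cells alone gave 0.22 and -0.37.

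NF-κB subunits and targets with feedback roles were the list that held the called gene. Of its 21 members 19 were tested, 1 was called higher (*Nfkbia*) and 0 lower, and the median difference was 0.31, where that of all genes tested was 0.00. Its 9 serum-induced members had a median of 0.33 (0.35 in number 1 and 0.40 in number 2), and 7 of them lay above 0 in both numbers. *Tnfaip3* and *Irf1* were chosen after their values were seen and stand with *Nfkbia* at the top of the induced members. Differences in the list went down to -0.26. *Tnfaip3*, which encodes the ubiquitin-editing enzyme A20 that shuts off NF-κB signalling, measured 4.81 and 4.31 CPM in WT at 0 min, 44.9 and 72.1 CPM in WT at 30 min, 4.65 and 4.35 CPM in dKO at 0 min, and 156 and 254 CPM in dKO at 30 min. The 0 min levels overlapped, both dKO libraries at 30 min were above both WT libraries, and number 2 was the higher library in each genotype. The difference was 1.83 (SE 0.66, edgeR adjusted p = 1), from responses of 3.68 in WT and 5.51 in dKO, and it was 1.83 in number 1 and 1.80 in number 2. *Irf1*, a transcription factor of interferon and inflammatory responses, measured 43.9 and 53.8, then 66.2 and 88.1 CPM in WT, and 42.3 and 50.7, then 111 and 154 CPM in dKO. Its groups overlapped at 0 min and were apart at 30 min, with a difference of 0.85 (edgeR adjusted p = 1).

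Chemokines, cytokines and *Ptgs2* formed the list with the highest median. Of 27 members 19 were tested, 0 were called in either direction by edgeR, and the median difference was 0.42. The 13 serum-induced members had a median of 0.67 (0.64 in number 1 and 0.58 in number 2), of which 10 lay above 0 and 3 below 0 in both numbers. In the fit, the induced members with a difference below 0 were *Cxcl5*, *Cxcl2* and *Il6*. *Cxcl1*, which attracts neutrophils, measured 1.05 and 0.80 CPM in WT at 0 min, 75 and 78.9 CPM in WT at 30 min, 1.24 and 1.26 CPM in dKO at 0 min, and 210 and 196 CPM in dKO at 30 min. The dKO libraries were above the WT libraries at both times, by little at 0 min and by a wide margin at 30 min. The response was 6.36 in WT and 7.34 in dKO, and the difference was 0.97 (SE 0.19, unadjusted p = 7.2e-04, edgeR adjusted p = 0.85).

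*Ccl2*, which attracts monocytes, rose in both genotypes. It measured 26.7 and 29.1 CPM in WT at 0 min, 181 and 286 CPM in WT at 30 min, 34.6 and 34.5 CPM in dKO at 0 min, and 381 and 570 CPM in dKO at 30 min. The groups did not overlap at either time, but the libraries of one group at 30 min lay far apart. The difference was 0.71 (SE 0.44, edgeR adjusted p = 1), 0.70 in number 1 and 0.75 in number 2. Its neighbour in the gene cluster, *Ccl7*, had a difference of 0.67, and *Ccl20*, a ligand for lymphocytes and dendritic cells, had 1.88 from levels no higher than 0.90 CPM in WT and 6.10 and 8 CPM in dKO at 30 min. *Ccl7* and *Ccl20* were chosen after their values were seen. *Il6* was at 1.33 CPM or less in every library, with a difference of -0.64 (SE 2.19). *Ptgs2*, the inducible cyclooxygenase, measured 11.8 and 9.46, then 171 and 219 CPM in WT, and 8.19 and 6.30, then 154 and 161 CPM in dKO. The dKO level was the lower one at both times and the difference was 0.25 (SE 0.26, edgeR adjusted p = 1). *Kitl*, a growth factor for melanocytes and mast cells, had a response of -0.08 in each genotype and a difference of 0.00, and *Ccl11* did not pass the filter on low counts.

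**Figure D3:**
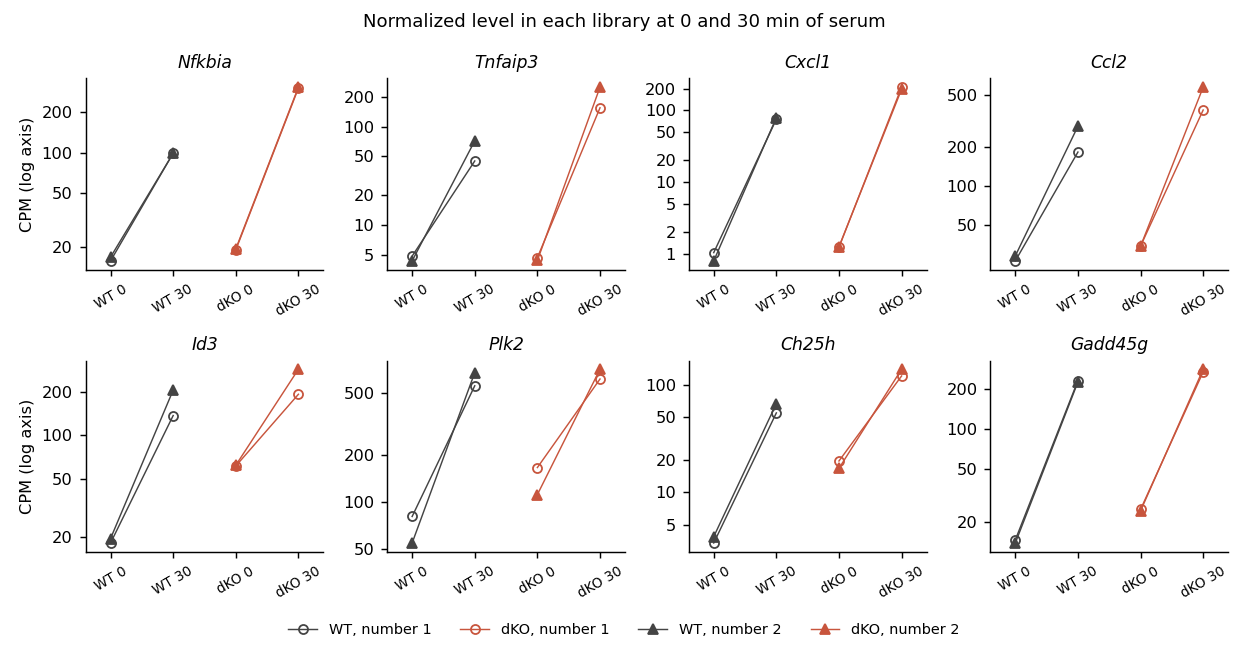
Level of 8 genes in each library (y axis, CPM, log axis) by group (x axis), with WT in grey and dKO in red, number 1 as circles and number 2 as triangles, and lines joining libraries of the same genotype and number. *Nfkbia*, *Tnfaip3*, *Cxcl1* and *Ccl2* reach their highest levels in both dKO libraries at 30 min, while *Id3*, *Plk2*, *Ch25h* and *Gadd45g* start higher in dKO at 0 min and reach levels nearer to those of WT.

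The induced transcription factors of the AP-1, EGR, NR4A and KLF families had smaller differences. Of the 10 AP-1 and related factors 9 were induced, with a median of 0.28 (0.31 and 0.34 by number), 7 above 0 in both numbers and 0 called by edgeR. *Jun* measured 65.7 and 57.8, then 299 and 277 CPM in WT, and 67.4 and 61.5, then 422 and 392 CPM in dKO. Its groups overlapped at 0 min and were apart at 30 min, and the difference was 0.44 (SE 0.11, unadjusted p = 0.0029, edgeR adjusted p = 1). *Fos* measured 542 and 220 CPM in WT and 771 and 332 CPM in dKO at 30 min, so its groups overlapped and the difference of 0.46 had an SE of 1.2. *Fosb*, a close relative of *Fos*, had a difference of -0.10 from responses of 8.0 and 7.9. *Fosl1*, chosen after its values were seen, is an AP-1 partner that usually rises later. It measured 7.32 and 7.26, then 33.0 and 59.7 CPM in WT, and 5.93 and 4.86, then 64.1 and 122 CPM in dKO, with a difference of 1.43 (SE 0.76, edgeR adjusted p = 1). Both dKO libraries were below WT at 0 min and above WT at 30 min.

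All 11 EGR, NR4A and KLF factors were induced, with a median of 0.33, although the libraries numbered 1 gave 0.11 and those numbered 2 gave 0.40. *Egr3*, a zinc finger factor of early growth responses, measured 6.57 and 7.01, then 518 and 541 CPM in WT, and 7.42 and 7.67, then 703 and 778 CPM in dKO. Both dKO groups were above the WT groups and the difference was 0.33 (SE 0.10, edgeR adjusted p = 1). *Egr2* had a difference of 0.61, the nuclear receptor *Nr4a3* 0.93 and its relative *Nr4a1* -0.11. *Egr4* had 0 counts in both dKO libraries at 0 min, so its fitted 1.68 is no estimate, and with a pseudocount of 0.5 CPM the difference was -0.57 in number 1 and -0.60 in number 2. Among 24 other immediate-early genes 19 were induced, with a median of 0.08. *Arc*, a regulator of synaptic endocytosis that serum induces in many cells, had 0.47. It measured 451 and 383 CPM in WT and 903 and 888 CPM in dKO at 30 min. That gap is wider than 0.47 on the log2 scale because the dKO level was already higher at 0 min. *Rgs16*, a brake on G-protein signalling outside the lists, had 0.92. *Pim1* and *Ier3*, chosen after their values were seen, had 0.89 and 0.77.

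Feedback inhibitors of the MAPK pathway and mRNA decay factors had medians of 0.39 over 8 induced members and 0.49 over 3, but 0.07 over all 15 and 0.07 over all 5 members tested. The 5 induced growth factor ligands had 0.53 (0.29 and 0.21 by number), and all 19 tested had -0.01. SRF cytoskeletal targets went the other way by little. Of the 18 tested 11 were induced, with a median of -0.14 (-0.16 and -0.13 by number), 8 below 0 and 0 above 0 in both numbers, and 0 called by edgeR. *Actg1*, cytoplasmic gamma-actin, measured 1188 and 1160.2, then 2549 and 2781 CPM in WT, and 1778 and 1569, then 3337 and 3558 CPM in dKO. The dKO groups were above the WT groups at both times, with responses of 1.18 and 1.04 and a difference of -0.14 (SE 0.09, edgeR adjusted p = 1). *Srf* itself had responses of 1.96 in WT and 1.91 in dKO and a difference of -0.05. The 5 induced YAP and TEAD targets had a median of -0.22 and all 9 tested had 0.01, with *Ccn2*, the matricellular factor CTGF, at 0.03.

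**Figure D4:**
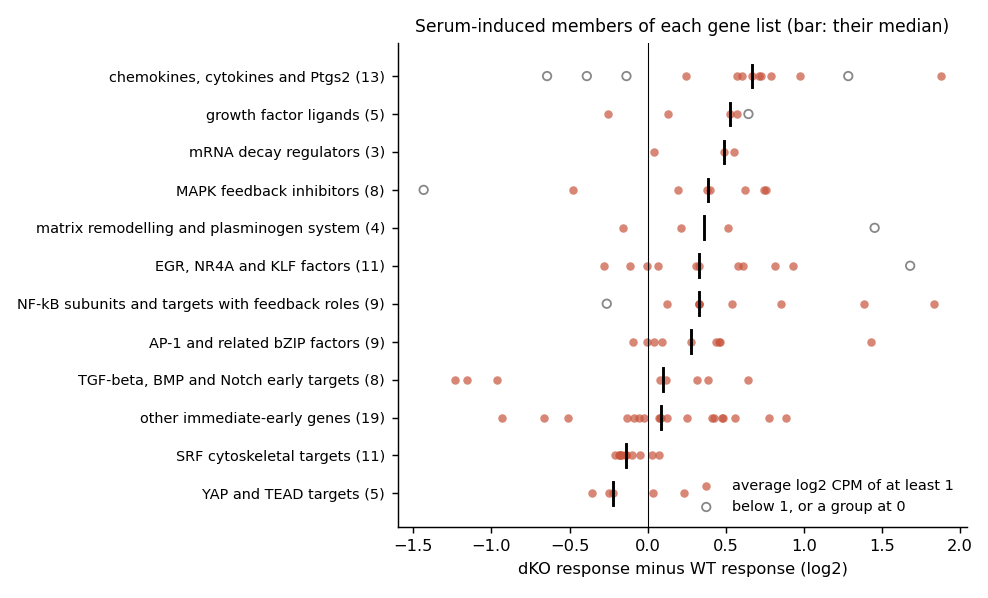
Difference between the dKO and WT responses (x axis, log2) for the serum-induced members of each list with 3 or more of them, 1 point per gene and a bar at the median. Open circles mark genes with an average log2 CPM below 1 or with a group at 0. Medians run from -0.22 for YAP and TEAD targets to 0.67 for chemokines, cytokines and *Ptgs2*, and points of most lists spread over both sides of 0.

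Lists with few or no serum-induced members mostly lay near 0. The median was 0.06 for 16 collagen and matrix genes, 0.00 for 20 cell cycle genes, 0.03 for 8 reference genes, 0.04 for 15 circadian clock genes, 0.01 for 18 FOXO targets and starvation genes and 0.00 for 10 SOCS and JAK-STAT feedback genes. Interferon-stimulated genes had -0.13 over 19 members, which was 0.01 in number 1 and -0.18 in number 2. Matrix remodelling and plasminogen genes had 0.13 over 15 members. Of these 4 were induced, with a median of 0.36 (-0.0003 and 0.14 by number). No member of these lists was called, and 0 of the 19 lists had a called member with a lower dKO response by edgeR.

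A set of induced genes had lower log2 responses in dKO than in WT, and in all of those shown here the dKO level was already higher at 0 min. They were chosen after their values were seen, and lists held some of them. *Id3*, a dominant-negative helix-loop-helix factor induced by BMP and TGF-β signalling, measured 18.3 and 19.6, then 137 and 205 CPM in WT, and 61.7 and 62.4, then 192 and 285 CPM in dKO. The dKO groups were apart from WT at 0 min and overlapped them at 30 min. The difference was -1.24 (SE 0.41, edgeR adjusted p = 1), yet the rise was 152 CPM in WT and 176 CPM in dKO. Its relatives *Id1* and *Id2* had -1.16 and -0.97, and *Id4* had 0.64 from a lower dKO level at 0 min. They belong to the 16 TGF-β, BMP and Notch early targets, of which 0 were called by edgeR and whose median was -0.05. Of the 8 induced members, with a median of 0.10, 5 lay above 0 in both numbers and 3 (*Id1*, *Id2* and *Id3*) below. *Plk2*, a stress-induced polo-like kinase, had -0.93 and rises of 545 and 520 CPM.

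*Ch25h*, which makes the immune oxysterol 25-hydroxycholesterol, measured 3.4 and 3.88, then 54.6 and 66.5 CPM in WT, and 19.6 and 16.7, then 120 and 139 CPM in dKO. The dKO groups were above WT at both times, and the difference was -1.23 (SE 0.22, unadjusted p = 7.4e-04, edgeR adjusted p = 0.85) while the rise was 56.9 CPM in WT and 111 CPM in dKO. *Gadd45g*, a stress sensor, measured 14.6 and 13.8, then 232 and 227 CPM in WT, and 24.8 and 24.2, then 271 and 283 CPM in dKO, which stood above WT at both times. Its difference was -0.51 (SE 0.07, unadjusted p = 4.2e-05, edgeR adjusted p = 0.11), with a rise of 216 CPM in WT and 253 CPM in dKO. Hence the log2 scale and the CPM scale give opposite directions for *Id3*, *Ch25h* and *Gadd45g*.

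The induced genes were also read by starting level, with one number giving the genotype difference at 0 min and the other the difference in response. The level at 0 min enters the difference in response with a minus sign. A 0 min difference shared by both numbers thus shifts it the opposite way by construction, and the split by number removes only library noise. The medians that follow describe the genes and do not test a relation to the starting level. Genes lower in dKO at 0 min by 0.3 to 1 on the log2 scale had medians of 0.36 (37 genes) and 0.41 (27 genes). Genes within 0.3 had 0.12 and 0.27 (118 genes each), genes higher by 0.3 to 1 had 0.03 (90 genes) and 0.09 (94 genes), and genes higher by over 1 had -0.17 in both readings (18 and 24 genes). *Timp3*, an inhibitor of metalloproteinases, was lower in dKO at 0 min, lies outside the induced class and was chosen after its values were seen. It measured 909 and 887, then 1062 and 1021 CPM in WT, and 423 and 442, then 729 and 822 CPM in dKO, with a difference of 0.63 (unadjusted p = 2.8e-05, edgeR adjusted p = 0.10).

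Among serum-repressed genes, *Ppp1r3c*, a glycogen-targeting phosphatase subunit, measured 16.3 and 17.8, then 5.68 and 3.05 CPM in WT, and 7.90 and 7.23, then 2.11 and 0.72 CPM in dKO. The dKO groups were below WT at both times, and the difference was -0.43 (SE 0.60). *Mrtfa*, the actin-regulated partner of SRF, went from 5.97 and 5.83 to 0.94 and 2.02 CPM in WT and from 6.12 and 6.15 to 3.60 and 3.09 CPM in dKO. The dKO libraries were above WT at both times, by little at 0 min, with a difference of 1.12 (edgeR adjusted p = 1). The zinc finger genes *Zkscan14*, *Zfp85* and *Zfp39* had -0.55, -0.02 and -0.03. Genes with symbols beginning with Zfp, Zscan or Zkscan were counted at an average log2 CPM of at least 1. They made up 31 of the 106 repressed genes and 347 of all 12028 genes at that level. The median difference of the 31 was -0.20, with 83.9% below 0, near the -0.18 and 81.1% of all 106. Over the 347 genes, chosen after values were seen, the median response was -0.21 in WT and -0.28 in dKO, and the median difference was -0.06.

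The promoter sequences of 5 genes are printed because the lists of NF-κB targets and of SRF targets stood on opposite sides of 0. All are RefSeq sequences of GRCm38.p6, read 5′ to 3′ on the strand of the gene, and matches to a motif searched on both strands are in capitals. Matches to the NF-κB motif stand in the first 3 and matches to the CArG box, the SRF motif, in the last 2. Only *Nfkbia* met the rule for printing a promoter, which asked for a called gene, and the other 4 were chosen after values were seen. *Nfkbia* is shown for chr12:55492648-55492807 (minus strand), *Cxcl1* for chr5:90891085-90891244 (plus), *Tnfaip3* for chr10:19015411-19015570 (minus), *Srf* for chr17:46556163-46556322 (minus) and *Actg1* for chr11:120348496-120348655 (minus).
Nfkbia: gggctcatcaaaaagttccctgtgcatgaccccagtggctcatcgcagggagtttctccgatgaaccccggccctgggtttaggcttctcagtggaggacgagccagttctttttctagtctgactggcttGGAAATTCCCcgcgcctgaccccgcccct
Cxcl1: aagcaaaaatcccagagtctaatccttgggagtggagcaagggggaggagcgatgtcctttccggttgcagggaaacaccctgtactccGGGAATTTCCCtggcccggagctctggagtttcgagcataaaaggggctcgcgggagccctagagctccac
Tnfaip3: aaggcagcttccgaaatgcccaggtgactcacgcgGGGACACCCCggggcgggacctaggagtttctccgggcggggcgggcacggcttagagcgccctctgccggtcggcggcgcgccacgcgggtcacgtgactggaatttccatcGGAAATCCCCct
Srf: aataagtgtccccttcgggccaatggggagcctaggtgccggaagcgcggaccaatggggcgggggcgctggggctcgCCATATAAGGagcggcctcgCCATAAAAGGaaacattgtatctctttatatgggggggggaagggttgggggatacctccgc
Actg1: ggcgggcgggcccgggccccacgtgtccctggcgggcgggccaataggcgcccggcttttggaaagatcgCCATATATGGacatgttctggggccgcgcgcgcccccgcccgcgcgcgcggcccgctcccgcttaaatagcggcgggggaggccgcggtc

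A match is a description of letters and shows no binding. Of the 15032 symbols tested, 10522 had a promoter in the table, and the 250 bases before the start were searched. The NF-κB motif was found in 574 of them (5.46%) and in 19 of the 191 induced genes searched (9.95%). Those 19 had a median difference of 0.46 (0.33 and 0.40 by number) and a median mean response of 2.40, where induced genes without it had 0.11 and 1.21. The CArG box was found in 156 promoters (1.48%) and in 14 induced genes (7.33%), with medians of 0.01 for the difference and 1.17 for the response. The CRE, TGACGTCA, stood in 3.06% of promoters and in 17 induced genes (8.90%), with medians of 0.24 and 1.90. The other 5 motifs searched were the AP-1 site (TGANTCA), the TATA box (TATAAA), and the ETS (CCGGAAG), SP (GGGCGG) and TEAD (GGAATG) sites. They stood in 5.22% to 64.6% of promoters, and the induced genes that held them had medians of 0.03 to 0.13. Genes with the NF-κB motif also had the larger responses, and the part of each in the difference was not tested.

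Libraries of the same number moved together in both genotypes within a time point. At 30 min the difference between number 2 and number 1 had a median size of 0.30 in WT and 0.31 in dKO over the 267 induced genes with an average log2 CPM of at least 1, against 0.10 and 0.13 at 0 min. Number 2 was the higher library at 30 min for 81.3% of them in WT and 77.9% in dKO. Across these genes the number differences of WT and dKO at 30 min had a correlation of 0.80, which is a description over genes from the same 4 libraries. This spread enters the standard errors above. A fit with a term for number within each time, chosen after seeing the data and left with 2 residual degrees of freedom in place of 4, called 18 genes higher (0.12%) and 15 lower (0.0997%) with edgeR. At any fold the adjusted p was under 0.05 for 80 genes in place of 2, and *Ccl2* (0.72, edgeR adjusted p = 4.9e-04), *Jun* (0.44, 0.0019) and *Egr2* (0.61, 0.0024) were among them. Of the 18 higher, 9 had a group at 0, and the other 9 were *Ier3*, *Irf1*, *Tnfaip3*, *Nfkbia*, *Dlx2*, *Pim1*, *Fosl1*, *Klf10* and *Rnd1*. Of the 15 lower, 9 had a group at 0, and the other 6 were *Id3*, *Plk2*, *Rgs2*, *Adm*, *Snai1* and *Ch25h*.

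**Figure D5:**
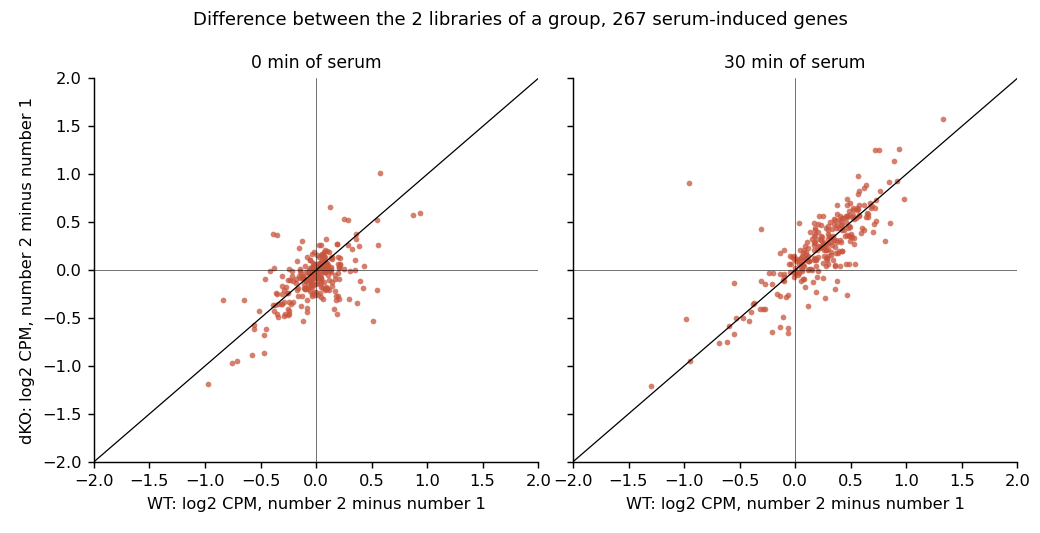
Level in number 2 minus level in number 1 (log2) in WT (x axis) against dKO (y axis), with 0 min of serum in the left panel and 30 min in the right. Each point is a serum-induced gene with an average log2 CPM of at least 1 (red, n = 267). At 30 min the genes spread along the diagonal with a correlation of 0.80, and most are higher in number 2 in each genotype. At 0 min the correlation was 0.62.

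Reading each number by itself gives a view that does not rest on that fit. The difference lay beyond 0.5 in the same direction in both numbers for 36 of the 267 induced genes above 0 (13.5%) and for 10 below 0 (3.75%), and for 0 it was beyond 0.5 in opposite directions. Over all 12028 genes with an average log2 CPM of at least 1, it was above 0.5 in both for 59 (0.491%) and below -0.5 in both for 45, and for 39 it was beyond 0.5 in opposite directions, none of them serum-induced or serum-repressed.

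The sorted cancer-associated fibroblasts (CAFs) of the series are libraries that the serum comparison did not use, 4 WT and 4 dKO, from tumours and with no serum step. In an edgeR fit with sex as a covariate over 15786 genes, *Nfkbia* measured 259 to 389 CPM (median 345) in WT CAFs and 368 to 491 CPM (median 415) in dKO CAFs. The log2 difference of 0.34 (adjusted p = 0.042) lay under the fold threshold, so *Nfkbia* was not called, and the ranges overlapped. *Tnfaip3*, *Cxcl1* and *Ccl2* were higher in dKO CAFs by 0.76, 0.95 and 0.94 (edgeR adjusted p = 0.015, 0.026 and 0.012). Other genes with a higher iDF response in dKO did not all follow. *Irf1* and *Ier3* stood at 0.62 and 0.11 in CAFs, and *Fosl1*, *Klf10* and *Pim1* at -0.29, -0.17 and -0.02. *Id3* and *Id1*, with lower iDF responses in dKO, stood at 0.32 and -0.31. Their edgeR adjusted p ran from 0.11 to 0.97, and they were chosen with values known. Of the serum-induced genes with an average log2 CPM of at least 1 in iDFs, 262 were tested in CAFs. Their median difference was 0.16, with 8 called higher and 3 lower. Over all 15786 genes tested, without that limit on level, the median was 0.00, with 229 higher and 636 lower.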

How the data were processed

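RNA of the 8 iDF libraries was sequenced with a strand-specific poly(A) protocol. The authors quantified reads per transcript with Salmon 1.2.1 against transcripts of GRCm38.p6, per the labels and methods, and deposited estimated counts (NumReads), TPM and effective lengths. Estimated counts were summed per gene (Gencode M21, 99.15% of 140992 transcripts matched) and rounded, and 0.311 to 0.344% of counts had no gene. TPM were not used. Genes passed edgeR's filterByExpr (minimum count 10, total 15). Counts were scaled by TMM and fitted over all 4 groups with edgeR 4.0.16 (robust quasi-likelihood, 4 residual degrees of freedom, R 4.3.3). A call needed an adjusted p under 0.05 and an absolute log2 value above 0.75. Values of 1 number are from log2(CPM + 0.5). Salmon splits reads shared by near-identical transcripts, so such genes are uncertain. Replicate libraries differed by more than sampling noise. Alternatives were DESeq2 1.42.0, limma-voom 3.58.1, other scalings and filters, a length offset, a replicate block and each library left out. Genes named by rule are those the study discusses, the targeted genes, the 10 largest induced and 5 largest repressed, and called list members. Other genes given with a difference fall outside this rule and were chosen with values known. Among them are *Tnfaip3*, *Irf1*, *Ccl7*, *Ccl20*, *Actg1*, *Srf* and *Ccn2*. Members and lists were chosen with earlier results of these data known.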

Additional observations from a re-analysis of the deposited data

Results flagged for a closer look

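The serum response of *Nfkbia* differed between genotypes by 1.38 on the log2 scale in the test of the difference itself, and both libraries of each group gave the same direction. That of *Gm2446* differed by 10.16, from 2 dKO libraries at 0 min with no counts, where the near-identical *Gm2436* had counts. No other gene passed that test.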

How the results depend on the processing

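*Nfkbia* was called in each of the fits in which it was tested, with differences of 1.34 to 1.58. For limma-voom, the missing fold threshold and thinning to equal depth, counts of genes alone were computed. The number of genes with a higher and a lower dKO response, 2 and 0, was 5 and 2 with DESeq2, 4 and 1 without the count filter, 2 and 1 with limma-voom, 1 and 0 for protein-coding genes, and 2 to 4 and 0 to 3 with 1 library left out. With a replicate block it was 5 and 1, and with the block within each time, added after seeing the data, 18 and 15. Over all genes, libraries of the same number deviated together within a time (correlation 0.17 at 0 min and 0.21 at 30 min) but not in every pair across times (lowest 0.05). Over the induced genes with an average log2 CPM of at least 1, the correlations within a time were 0.62 and 0.80. The main fit has no block for pairing, and the low values across times do not speak to a term within each time. The unadjusted edgeR p was under 0.05 for 2.42% of genes in the main fit and 5.40% with that term. The replicate block gave 105 repressed genes in WT and a slope of 1.15.

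The slope of 1.17 was 1.39 with DESeq2, 1.13 without the filter, 1.14 at an average log2 CPM of at least 1, 1.14 for protein-coding genes, 1.16 without robust estimation, 1.01 for genes called in WT and 1.42 for genes called in dKO. With 1 library left out it was 0.88 to 1.51, and 1.12 to 1.22 with the classes kept. The median of induced genes was 0.23 above a mean response of 1.5, 0.063 for genes called in WT, 0.22 for genes called in dKO, -0.0072 to 0.23 with 1 library left out, and 0.018 to 0.26 with classes kept. The median of repressed genes was -0.18 with DESeq2, -0.20 without the filter, -0.17 at an average log2 CPM of at least 1, -0.15 for protein-coding genes, -0.34 below a mean response of -1.5, -0.060 for genes called in WT, -0.37 for genes called in dKO, -0.51 to 0.043 with 1 library left out, and -0.35 to -0.086 with classes kept.

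Without the fold threshold 545 genes were induced and 200 repressed in WT, and 894 and 558 in dKO. Repressed genes were 34 in WT and 81 in dKO with the length offset, and 98 in dKO with DESeq2. With 1 library left out, 112 to 253 genes were induced and 12 to 82 repressed in WT, and 174 to 335 and 48 to 229 in dKO, with the lowest counts without number 2 at 0 min of the same genotype. The cause of these shifts was not tested.

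The difference changed sign for *Il6* (0.70), *Kitl* (-0.0076) and *Zfp85* (0.52) with the length offset. Read as a difference in CPM rise it did so for *Ptgs2* (-34.1), *Egr4* (-6.32), *Nr4a1* (948), *Ppp1r3c* (6.53) and *Zfp85* (0.59). With 1 library left out it ran from -0.66 to 2.60 for *Egr4*, -0.26 to 1.26 for *Fos*, -0.28 to 0.11 for *Fosb*, -1.55 to 1.51 for *Il6*, -0.14 to 0.15 for *Kitl*, -0.41 to 0.17 for *Nr4a1*, -1.42 to 0.12 for *Ppp1r3c*, -0.63 to 0.52 for *Zfp39* and -0.23 to 0.23 for *Zfp85*. Without a change of sign it ran from 0.39 to 1.08 for *Ccl2*, 0.29 to 0.94 for *Egr2*, 0.35 to 1.38 for *Nr4a3*, 0.50 to 1.5 for *Rgs16*, 0.07 to 0.45 for *Ptgs2* and 0.67 to 1.77 for *Mrtfa*. With the length offset the difference of *Mrtfa* was 0.29, in place of 1.12. With 2 libraries a group, small differences of genes with few counts were not detectable at this depth. Larger differences of genes with more counts, such as those of *Tnfaip3* (1.83) and *Id3* (-1.24), were not called in the main fit either.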
